A study of Homo sapiens with 6 samples.

Results

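The strong RB-knockdown-only E2F7 regions are peaks called by ChIP-seq in Ras-induced senescent IMR90 cells with RB knocked down, each holding at least 100 tags and overlapping no peak of the quiescent or growing lists by 1 bp or more. There were 3178 of them, among 43643 peaks of that list on chromosomes 1 to 22 and X (7.28%). All 3 lists together held 63371 peaks on all chromosomes. ChIP-seq sequences the DNA that is pulled down with an antibody to a chromatin protein, and a tag is one aligned read. IMR90 is a human fetal lung fibroblast line. The groups compared were senescent cells carrying Ras and an RB hairpin, quiescent cells and growing cells. The labels list no treatment for the quiescent and growing cells. The protocol text names an ER-Ras vector, hairpins and collection 4 days after tamoxifen. ChIP used 10 µg of E2F7 antibody in all 3. The senescent cells thus differed from the other cells by Ras, the hairpin and the cell state at once, and these cannot be told apart. Senescent cells with intact RB were not analysed here, and the depth of the RB knockdown was not checked, since a peak list does not hold expression.

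RB, the retinoblastoma protein, binds the activating E2F factors and holds back the genes they drive, mainly genes of DNA replication and cell division. E2F7 is an atypical E2F: it carries a pair of DNA-binding domains, binds without a DP partner, does not bind RB and represses E2F target genes. The E2F7 gene is itself induced by p53 in senescent fibroblasts. The series asked where E2F7 binds in growing or senescent cells with different hairpins.

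There was 1 library per state, so no value below has a replicate error, no test between states was possible, and every p-value quoted is the peak caller's own. Filtered libraries held 23379790 tags (RB knockdown), 25212239 (quiescent) and 22628990 (growing). The regions were chosen by their tags and by the absence of overlap. Fold enrichment, width and p come from the same library as the tags. All of these are given as descriptions. A region missing from the quiescent or growing list may still have carried signal below its calling threshold. Genes and sequences were not assigned to the regions, because coordinates are on hg18 and the annotation at hand is on another build.

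Strong peaks without a partner were far more frequent in the RB knockdown list than in the others. Of its 4898 peaks with at least 100 tags, 64.9% lay in no other list (95% exact interval 63.5% to 66.2%, 3178 peaks). The same rule applied to the quiescent list found 115 of 1724 strong peaks (6.67%, 5.54% to 7.95%). In the growing list it found 15 of 433 (3.46%, 1.95% to 5.65%). The highest tag count of a peak found in 1 list only was 867 with RB knockdown, 816 in quiescence and 303 in growing cells. Without a tag minimum the shares in no other list were 83.4% of 43643 RB knockdown peaks, 43.1% of 10225 quiescent peaks and 74.1% of 9466 growing peaks. The part that list length plays was not tested. The caller used a fragment length of 125 bp for the RB knockdown list and 200 bp for the other lists, and the part this plays was not tested.

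Within the RB knockdown list, the more tags a peak held, the more often another list held it too. The share without a partner was 93.4% for peaks under 25 tags, 77.4% at 75 to 99 tags and 73.7% at 100 to 124 tags (71.7% to 75.6%). It was 62.2% at 150 to 199 tags (59.0% to 65.3%) and 47.6% at 200 to 299 tags (43.1% to 52.1%). At 500 tags or more it was 22.1% (13.9% to 32.3%, 19 of 86 peaks). Even among the heaviest peaks some regions had no partner, while most were shared. Overlap with the quiescent list ran the other way, from 23.8% at 100 to 124 tags to 65.1% at 500 or more, and overlap with the growing list from 8.11% to 58.1%. At equal tags the peaks without a partner were about as wide as the shared peaks, with medians of 865 and 876 bp at 50 to 74 tags and 1747 and 1739 bp at 150 to 199 tags. Width thus rose with tags, and a wide peak reaches an overlap of 1 bp more easily. The part of width in the trend with tags was not tested.

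**Figure D1:**
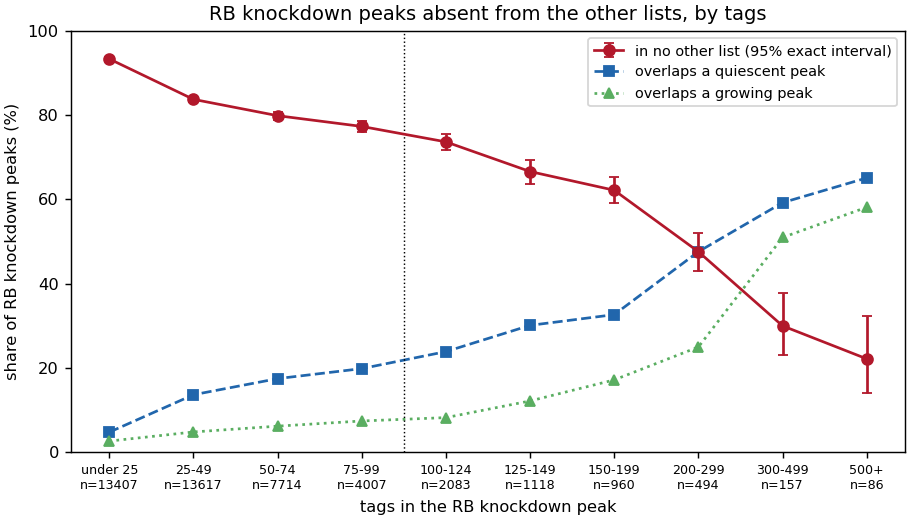
Share of RB knockdown peaks (y axis, percent) against the tags in the peak (x axis, number of peaks under each bin), for peaks in no other list with 95% exact intervals and for peaks overlapping a quiescent or growing peak. The share in no other list is 93.4% under 25 tags and 22.1% at 500 tags or more, and the dotted line marks the 100-tag minimum.

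The regions were broader than the RB knockdown list as a whole, with a slightly lower median fold enrichment. Their median tag count was 126 (quartiles 110 and 154, highest 867), and 2280 of them (71.7%) held fewer than 150 tags. A total of 301 held at least 200 tags and 19 at least 500. Median width was 1459 bp (quartiles 1184 and 1818, range 489 to 8261). It was 650 bp in the whole list and 1563.5 bp in the strong RB knockdown peaks that another list shared. Width went with tags, on which the regions were chosen. Together they covered 5.05 Mb and held 455519 tags, which was 1.95% of the filtered library (95% Wilson interval 1.94% to 1.95%) and 19.5% of all tags in RB knockdown peaks.

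Their fold enrichment, the caller's ratio of the ChIP signal over its local background, had a median of 6.71 (quartiles 5.24 and 8.69, range 2.69 to 34.6). In the strong RB knockdown peaks that another list shared, 1720 in number, it was 9.92 (quartiles 7.38 and 13.6). In the 33202 RB-knockdown-only peaks under 100 tags, called light unshared peaks here, it was 6.98 (5.75 and 8.41). In the whole RB knockdown list it was 7.13 (5.82 and 8.81). The regions therefore stood below the shared strong peaks and the whole list in median fold. A fold under 5 was held by 19.7% of the regions, 4.24% of strong shared peaks and 12.1% of light unshared peaks, against 11.7% of the list. Among the light unshared peaks the median was 8.11 under 25 tags, above the regions, and 6.37, 6.13 and 6.24 at 25 to 49, 50 to 74 and 75 to 99 tags, below them. The light unshared peaks were narrower, with a median of 582 bp. A fold of at least 10 was reached by 14.5% of the regions (13.3% to 15.8%, 461 regions), by 49.1% of strong shared peaks and by 10.9% of light unshared peaks, against 14.5% of the whole list. The gap to the shared peaks was present at equal tags. At 100 to 124 tags, median fold was 6.48 in the regions and 8.89 in shared peaks, with widths of 1283 and 1275 bp. At 200 to 299 tags it was 7.42 and 10.6, with widths of 2307 and 2251 bp. At 300 to 499 tags it was 7.65 (47 regions) and 12.8.

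Among the regions, whose tags the rule cut at 100, the caller's significance followed fold more than tags, as in strong shared peaks. The deposited -10*log10 p, which is larger for a peak less likely under local background, had a median of 152 in the regions, 313 in strong shared peaks and 66.3 in light unshared peaks. A value under 100 was held by 25.1% of the regions (23.6% to 26.7%) and 3.26% of strong shared peaks, against 71.4% of the list. A false discovery rate (FDR) over 1%, estimated by exchanging ChIP and control, was carried by 12.6% of the regions (11.5% to 13.8%) and 1.16% of strong shared peaks, against 53.2% of the list. Across the 3178 regions, tags correlated with width (Spearman rho 0.52) and hardly with fold (0.12), and fold correlated negatively with width (-0.33). The -10*log10 p tracked fold (0.73) more closely than tags (0.35). Strong shared peaks had the same order, with 0.74 for fold and 0.59 for tags. Their width also correlated with tags (0.59) and negatively with fold (-0.29). In the light unshared peaks the order was the other way, with 0.29 for fold and 0.56 for tags. These are correlations across peaks of 1 library, which share depth and control, and are given as a description.

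The heaviest and the tallest regions were different peaks. None of the 10 with most tags was among the 10 with the highest fold, and 8 were common to the first 100 of both rankings. The heaviest, at 38792112 to 38795475 on chromosome 17, held 867 tags over 3364 bp and was enriched 8.50-fold. It was compact for its tag count, at 258 tags per kb, and the nearest quiescent and growing peaks lay 15.3 and 13.7 kb away with 16 and 20 tags. The second, at 121550350 to 121557139 on chromosome 11, held 860 tags over 6790 bp and was enriched 11.5-fold. Its summit lay at 91.2% of the peak's width, near the right edge. The third, at 130234054 to 130240799 on chromosome 7, held 823 tags at 8.70-fold and had the largest -10*log10 p of the regions (1524). A growing peak of 363 tags lay 2.87 kb from it.

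Among the other heavy regions, tags and significance parted most in the fourth. The fourth, on chromosome 22 at 35053872 to 35062132, held 773 tags over 8261 bp and was the widest region, yet its -10*log10 p was 76.9 and its FDR 0.88%. A quiescent peak of 127 tags (FDR 28.6%) stood 14.3 kb away. The fifth, at 121461024 to 121468216 on chromosome 11, held 733 tags over 7193 bp with the summit at 4.56% of the width, at the left edge. Its -10*log10 p was 515. The sixth, on chromosome 5 at 151041889 to 151047249, held 728 tags with 10.6-fold enrichment and a -10*log10 p of 769. The nearest growing peak lay 574 kb away, while a quiescent peak of 104 tags lay at 8.09 kb.

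The remaining 4 heavy regions had neighbours of the other lists at very different distances. Chromosome 15 held a pair of them, at 65273960 to 65280456 with 712 tags and 5.60-fold enrichment, and at 94678314 to 94685298 with 666 tags, 7.56-fold and a quiescent peak at 3161 bp. The region on chromosome 6, 74279332 to 74284070, had 670 tags, and its neighbours were a growing peak of 38 tags at 522 bp and a quiescent peak of 301 tags at 1956 bp. The region on chromosome 12, 74703923 to 74707734, had 657 tags and a quiescent peak of 294 tags at 376 bp. These regions on chromosomes 6 and 12, that at 94678314 on chromosome 15 and the third heaviest, on chromosome 7, missed a peak of another list by less than their own width, so their absence from the other lists holds for the interval called and not for the neighbourhood.

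The tallest regions were narrow. The 10 with the highest fold were 729 to 1532 bp wide, with 126 to 311 tags, an FDR of 0% and folds from 28.7 to 34.6. The first 4, on chromosomes 19, 22, 2 and 17, had 151, 136, 174 and 136 tags. The fifth and sixth were both on chromosome 16. The one at 30273844 to 30274869 had 290 tags in 1026 bp (283 per kb), 31.1-fold enrichment and a -10*log10 p of 1401. The one at 73257901 to 73258827 had 196 tags and 30.3-fold enrichment, with the quiescent and growing neighbours 66.8 and 67.2 kb away. The others lay on chromosome 17 at 12462444 (29.8-fold), chromosome 10 at 69193225 (29.0-fold), chromosome 19 at 10625266 (311 tags, 29.0-fold) and chromosome X at 106757577 (28.7-fold). A fold of at least 20 was reached by 39 of the 3178 regions (1.23%, 0.874% to 1.67%), against 315 of 43643 peaks of the list (0.722%). It was reached by 178 of 1720 strong shared peaks (10.3%) and 0.0723% of light unshared peaks. Of the 10 tallest regions, 9 had the summit between 31.4% and 54.4% of the width, and the region on chromosome 17 at 72832678 had it at 22.97%.

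**Figure D2:**
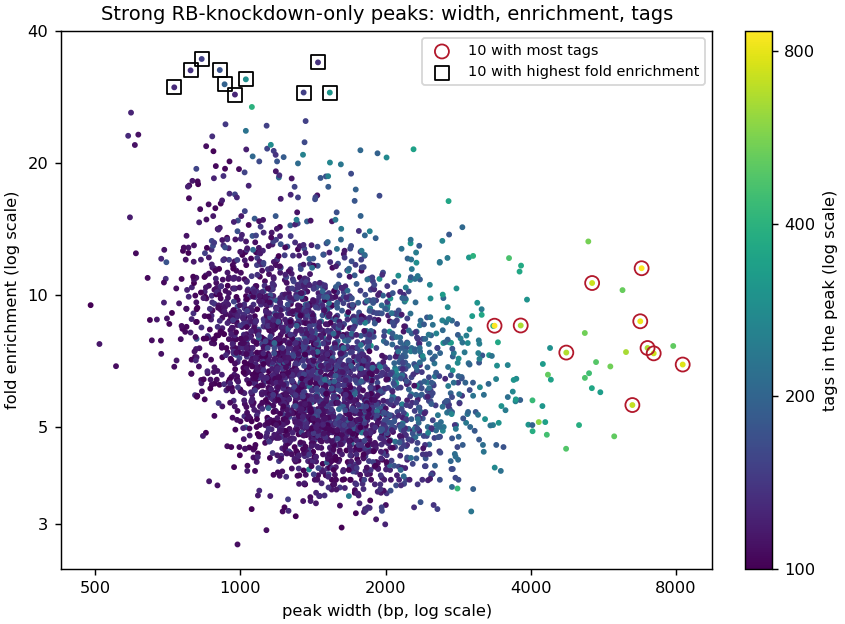
Width (x axis, bp) against fold enrichment (y axis) of the 3178 strong RB-knockdown-only peaks, both on log scales, coloured by tags. The 10 peaks with most tags (circles, 657 to 867 tags) are 3364 to 8261 bp wide, and the 10 with the highest fold (squares, 28.7 to 34.6) are 729 to 1532 bp wide.

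The extremes of width bracket these groups. The 5 widest regions ran from 6790 to 8261 bp, and 4 of them were among the 10 heaviest. The exception, on chromosome 12 at 113597344 to 113605239, had 512 tags and was thinly filled, with 64.8 tags per kb. Its nearest quiescent and growing peaks were 1025 and 2091 bp away. The 5 narrowest were 489 to 590 bp wide with 100 to 129 tags. Among them the region on chromosome 1 at 38376671 to 38377255 packed 129 tags into 585 bp at 23.1-fold enrichment. A quiescent peak of 32 tags lay 834 bp from it.

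Summits lay near the middle in most regions, though less often than in the whole RB knockdown list. The median position was 50.2% of the width (quartiles 36.7% and 64.2%), against 49.6% in strong shared peaks. A summit in the first or last 25% of the peak's width was found in 18.6% of the regions (17.3% to 19.99%), against 10.1% of the whole list. The share was 21.1% in strong shared peaks (19.2% to 23.1%) and 8.69% in light unshared peaks (8.39% to 8.99%). The light unshared peaks and those of the whole list were also narrower, and the part of width in this share was not tested.

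The threshold of 100 tags cut through a continuous distribution. There were 77 regions with exactly 100 tags and 84 unshared peaks with exactly 99. Median fold was 6.35 at 100 tags and 6.95 at 99 tags, and median width 1173 and 1169.5 bp. The first 5 by position with 100 tags, all on chromosome 1, had folds of 5.71 to 11.0 and -10*log10 p from 99.4 to 226. The first 5 with 99 tags, also on chromosome 1, had folds of 4.79 to 13.6 and -10*log10 p from 60.7 to 262. Peaks on either side of the threshold thus covered overlapping ranges.

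The regions lay closer to other strong RB knockdown peaks than light unshared peaks did. Another RB knockdown peak of at least 100 tags, shared or not, stood within 10 kb of 25.4% of the regions (23.9% to 26.9%, 807 regions). This was so for 33.4% of strong shared peaks (31.1% to 35.7%) and 9.20% of light unshared peaks (8.89% to 9.51%), against 11.9% of the whole list. Within 50 kb the shares were 51.8% (50.01% to 53.5%), 57.6% (55.2% to 59.9%) and 27.8% (27.3% to 28.3%), against 31.4% of the list. The median distance to such a peak was 45.2 kb for the regions, 30.4 kb for strong shared peaks and 147 kb for light unshared peaks. Any RB knockdown peak, whatever its tags, lay within 10 kb of 64.0% of the regions, against 50.4% of the whole list. The share was 72.0% for strong shared and 46.9% for light unshared peaks. Position was not used to choose the regions, but neighbouring peaks of 1 library are not independent, and a broad enriched stretch can be split into several peaks by the caller.

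**Figure D3:**
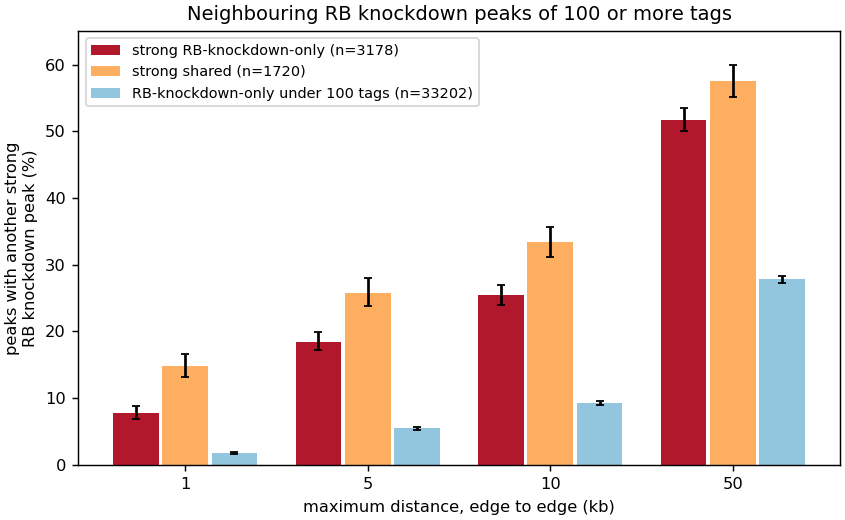
Share of peaks (y axis, percent, bars with 95% exact intervals) that have another RB knockdown peak of at least 100 tags within 1, 5, 10 or 50 kb (x axis), for the regions, strong shared peaks and RB-knockdown-only peaks under 100 tags. Within 10 kb the shares are 25.4%, 33.4% and 9.20%.

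Many regions formed runs along a chromosome. When regions separated by at most 50 kb were joined, 1329 of 3178 (41.8%, 40.1% to 43.6%) fell into 483 runs of at least 2, and 1849 stood alone. Runs were joined for the regions only, so this share has no counterpart in other peaks. Closeness was not particular to the regions. Another strong RB knockdown peak lay within 50 kb of 57.6% of strong shared peaks, against 51.8% of the regions. There were 33 runs of at least 5 regions, holding 268 of them (8.43%), and 8 runs of at least 10, holding 124. Regions in runs of at least 5 had a median of 148 tags, 6.42-fold enrichment and a width of 1843 bp. Regions standing alone had 122 tags, 6.86-fold and 1393 bp. At least 200 tags were held by 19.4% of the regions in such runs and 6.06% of those alone. Runs were thus made of heavier and wider peaks with slightly lower fold, and their distance to the nearest peak of another list had a median of 20.8 kb, against 34.6 kb for regions alone.

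The largest run was on chromosome 11, from 121459072 to 121591934. It held 22 regions over 133 kb with 4746 tags in all, and included both heavy regions of this chromosome named above, of 860 and 733 tags. The other members had 102 to 286 tags and folds of 3.48 to 9.81. A further 9 RB knockdown peaks in the run were under 100 tags, and RB knockdown peaks covered 50.3% of the span. Neither the quiescent nor the growing list had a peak in it (0 of each). Gaps between neighbouring members ran from 13 to 18812 bp, with a median of 2334 bp.

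The second run was on chromosome 15, from 65127397 to 65280456, with 20 regions over 153 kb. Its members held 102 to 712 tags with a median of 134, and the heaviest stood at the right end. The run contained 1 quiescent peak of 101 tags and 2 growing peaks of 186 and 63 tags. The growing peak of 186 tags lay over an RB knockdown peak of 66 tags. Here the largest growing signal in the span coincided with a light RB knockdown peak, in the widest gap between neighbouring regions of the run (27042 bp).

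The third run, on chromosome 7 from 130185096 to 130296359, was of another kind. Its 15 regions, with 113 to 823 tags, were interleaved with 4 RB knockdown peaks of 375 to 1082 tags that overlapped growing peaks of 133 to 363 tags. No quiescent peak lay in the span. Several members abutted these shared peaks, and one at 130213773 to 130215259 with 148 tags missed a growing peak by 15 bp. In this run the RB knockdown signal extended beyond intervals that were also called in growing cells.

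**Figure D4:**
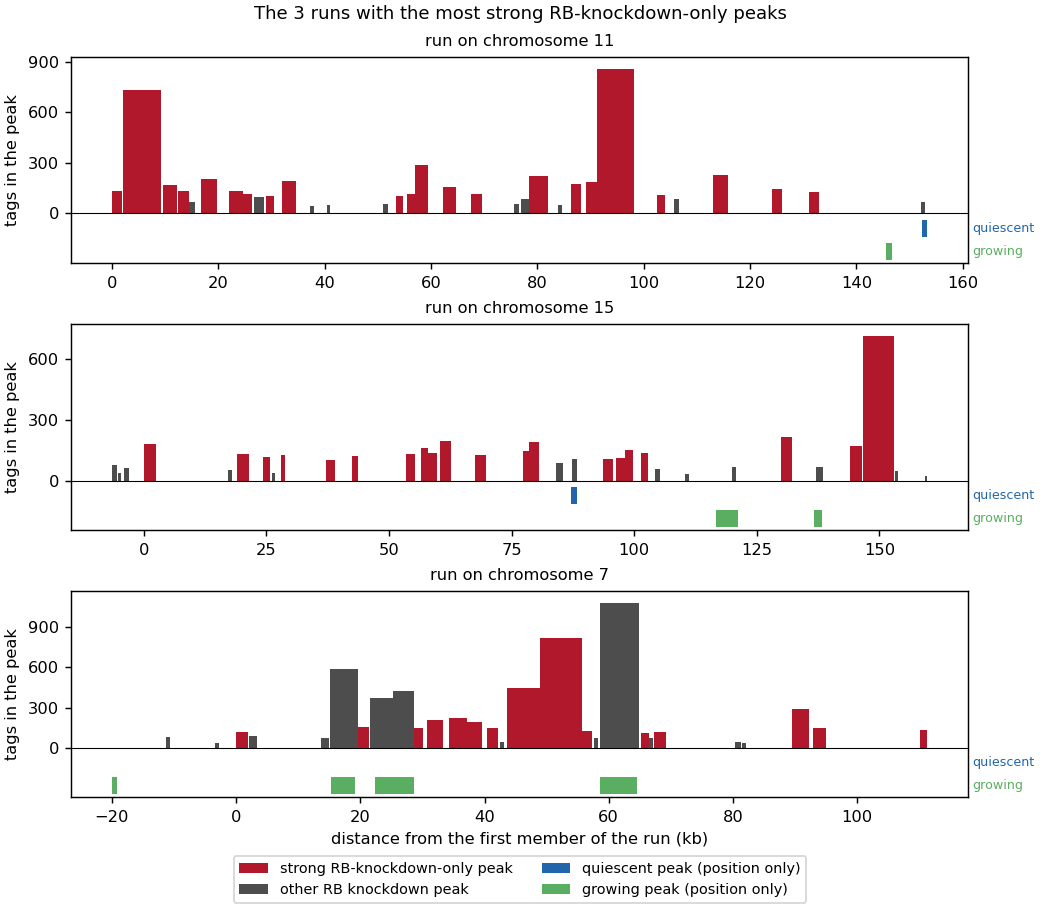
Peaks in the 3 runs with the most strong RB-knockdown-only regions, plotted by distance from the first member (x axis, kb) with bar width the peak's width and height its tags (y axis). Quiescent and growing peaks are drawn below by position only: the run on chromosome 11 holds 0 of either, that on chromosome 15 holds 1 and 2, and that on chromosome 7 holds 0 and 4.

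The other 5 runs of at least 10 regions were as follows. On chromosome 6, from 26133566 to 26405544, 14 regions were spread over 272 kb with folds of 3.86 to 15.4 and tags up to 553. RB knockdown peaks covered 16.8% of that span, which also held 1 quiescent peak of 192 tags and 1 growing peak of 71 tags. On chromosome 17, from 59953377 to 60136748, 14 regions stood among 34 RB knockdown peaks. On chromosome 12, from 64505507 to 64636945, 13 regions had a median of 194 tags, the highest of the 8 runs. On chromosome 2, from 215936084 to 215991783, 13 regions were packed into 55.7 kb, and RB knockdown peaks covered 77.9% of it. On chromosome 15, from 68705896 to 68880052, 13 regions held 105 to 312 tags. The quiescent and growing lists had no peak in the spans on chromosome 12 and at 68705896 on chromosome 15, and 1 growing peak each in those on chromosomes 17 and 2. With gaps of at most 10 kb, 14 runs of at least 5 regions were left, and the longest, on chromosomes 11 and 2, had 13 regions each.

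Most regions had a peak of another list in the wider neighbourhood. The nearest quiescent or growing peak was a median of 30.6 kb away (quartiles 10.8 and 69.3 kb), and it was 36.8 kb (13.1 and 85.6 kb) for light unshared peaks. Overlap was used to choose both sets, so these distances are a description. The nearest quiescent peak lay at a median of 48.9 kb and the nearest growing peak at 72.6 kb. Such a peak lay within 1 kb of 113 regions (3.56%, 2.94% to 4.26%), within 10 kb of 742 (23.3%) and within 100 kb of 2696 (84.8%). The shares for light unshared peaks were close to these, at 3.27%, 20.2% and 79.1%.

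Where a peak of another list stood within 1 kb, it was a broad one for its list. The quiescent peaks beside 70 regions had a median of 102 tags and 1704.5 bp, against 50 tags and 1091 bp in the whole quiescent list. The growing peaks beside 57 regions had 75 tags and 1636 bp, against 23 tags and 711 bp. Their fold enrichment was lower than the list's, at 5.47 against 6.33 in quiescent and 4.88 against 6.56 in growing cells. The median FDR of these neighbours was 15.4% in quiescent cells (26.4% in the list) and 73.1% in growing cells (72.6% in the list). A high FDR limits what most growing neighbours mean, but it varied among those named here. On chromosome 7 the growing peak of 363 tags had an FDR of 4.29%, and that of 133 tags had 51.6%. The smallest gaps were 11 and 21 bp, on either side of 1 quiescent peak of 131 tags on chromosome 2, where the regions at 55130470 to 55132639 and 55125698 to 55127888 held 247 and 211 tags. Gaps of 15, 22 and 23 bp followed, at a region of 148 tags on chromosome 7, one of 112 tags on chromosome 9 (112837630 to 112839529) and one of 141 tags on chromosome 17 (7064020 to 7065705).

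At the other extreme, 5 regions had no peak of another list within 653 kb. The most isolated, at 135006143 to 135007001 on chromosome 4, held 102 tags at 8.92-fold and lay 2090.5 kb from a quiescent peak and 3965 kb from a growing peak. The others were on chromosome 3 at 133337041 (126 tags, 9.88-fold), chromosome 1 at 157245834 (132 tags, 6.02-fold) and at 143244396 (137 tags, 3.63-fold, FDR 1.4%), and chromosome 7 at 110625252 (112 tags, 9.27-fold). The isolated regions thus had 102 to 137 tags and folds on either side of the median of 6.71.

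The regions were spread unevenly over the chromosomes when set beside all RB knockdown peaks, of which they are a subset. Chromosome 15 held 5.16% of them (4.42% to 5.99%, 164 regions), against 3.43% of all RB knockdown peaks (3.26% to 3.61%). Chromosome 11 held 6.86% (6.01% to 7.79%) against 5.40%, chromosome 17 held 5.76% (4.97% to 6.63%) against 4.64%, and chromosome 1 held 11.0% (9.95% to 12.2%) against 9.31%. Chromosome X held 0.566% (0.336% to 0.894%, 18 regions) against 2.03% (1.90% to 2.16%). Chromosome 16 held 2.14% (1.67% to 2.70%) against 3.17%, and chromosome 4 held 3.71% (3.08% to 4.43%) against 4.89%. On the other 16 chromosomes the intervals of both sets overlapped. These intervals count each peak as independent, which peaks in runs are not, so they are too narrow for a test. On chromosome 11, for instance, 22 of the 218 regions lay in 1 run.

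Part of this pattern was present in the strong shared peaks too, for which no intervals were computed. Of these, 7.97% lay on chromosome 17, 6.51% on chromosome 11, 3.49% on chromosome 4 and 0.930% on chromosome X. Chromosome 1 held 9.53% of the strong shared peaks, close to the 9.31% of all RB knockdown peaks. Chromosome 15 held 2.97% and chromosome 16 held 3.78% of the strong shared peaks, on the other side of the share of all RB knockdown peaks from the regions. Per Mb of sequence spanned by peaks, chromosome 17 held 2.33 regions, chromosome 19 held 1.72, chromosome 15 held 1.64 and chromosome X held 0.117. Chromosome 16, with 15.6 RB knockdown peaks per Mb, held only 0.767 regions per Mb, while chromosome 15, with 14.9 peaks, held 1.64.

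**Figure D5:**
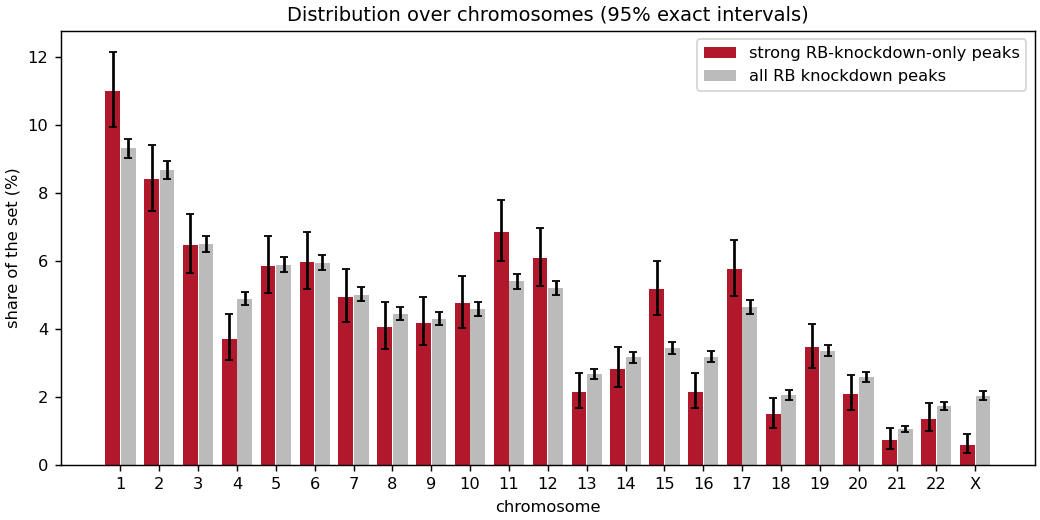
Share of the strong RB-knockdown-only regions and of all RB knockdown peaks (y axis, percent, bars with 95% exact intervals) on each chromosome (x axis). Chromosomes 1, 11, 15 and 17 hold a larger share of the regions and chromosomes 4, 16 and X a smaller one.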

How the data were processed

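Per the submitters' processing notes, the aligner was Bowtie and the build hg18. Its version is not given in the sources used here. Peaks were called on each library alone with MACS 1.4.1 against 1 control library common to the 3 lists (p cutoff 1e-05, at most 2 tags per position), per the file headers. The headers do not say whether this control was the IgG or the input sample, so what each fold, p and FDR is measured against is known only as that library. The deposited values are the tag count per peak, the score -10*log10 p, fold enrichment as a linear ratio to local background, the FDR in percent, and width and summit in bp. These are the authors' values.

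From these, distances between peaks (edge to edge, 1 bp for adjacent peaks), runs and shares were computed with Python 3.11.15, pandas 2.3.3 and scipy 1.17.1, and the distance functions were tested on simulated data. Intervals are 95% exact (Clopper-Pearson), or Wilson for tags, and cover counting error only. Named regions were the 10 with most tags, the 10 with the highest fold, the 5 widest, narrowest, nearest to and farthest from another list, the 3 largest runs, and 5 peaks on either side of 100 tags. The further runs of at least 10 regions were described after their values were seen. Regions, rules and comparisons were chosen with earlier results of these data known. Gene starts and sequences were planned but not examined, as no hg18 genome or annotation was at hand.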

Additional observations from a re-analysis of the deposited data

How the results depend on the processing

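The number of regions depended on the tag minimum: 12443 peaks at 50 tags, 898 at 150 and 301 at 200, against 3178 at 100. Requiring 10-fold enrichment left 461. Other changes kept it within 1.5 times: 3065 and 2436 with no other peak within 1 or 10 kb, 3653 by summits within 200 bp, 3935 and 4186 with the other lists held to a -10*log10 p of 100 or an FDR of 5%, 2380 and 2778 with the RB knockdown list held to a -10*log10 p of 100 or an FDR of 1%, and 3369 and 4177 against the quiescent or the growing list alone. Median fold was 7.18 at 150 tags and 8.08 at 100 tags per kb, against 6.71 (6.62 to 6.83). The unshared share of strong peaks, 64.9%, became 62.6% with no peak within 1 kb, 85.5% with the other lists at an FDR of 5%, 68.8% against the quiescent list alone and 85.3% against the growing list alone (alternatives chosen after seeing the data). The share in runs, 41.8%, became 19.5% and 55.9% with gaps of 10 and 100 kb, and 30.5% at 150 tags, where fewer regions are joined. Median distance to another list was 32.0 kb between summits, against 30.6 kb. Windows around gene starts and summit sequences were not run. No paired analysis was possible because each state has 1 library. Absence from a list means only that no peak was called. The lightest listed peaks held 12 tags with RB knockdown and 15 in quiescent and in growing cells. The part that depth plays was not tested.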
